A study of Homo sapiens with 6 samples.

Results

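Autophagy and lysosome genes were followed in Nthy-ori 3-1 cells, a human thyroid follicular epithelial line immortalised with a viral oncogene. The set was given as a list of 31 gene symbols, and all 31 were found among the 16574 genes of the deposited files. They comprised 18 genes of the autophagosome machinery, 12 genes of lysosomal membrane proteins and hydrolases, and TFEB, the transcription factor best known for controlling lysosomal genes. One group of 3 libraries came from cells exposed for 27 days to 2.5 µM BDE209 (decabromodiphenyl ether, a brominated flame retardant), and the other group of 3 from cells given an equal volume of the solvent DMSO for 27 days. Every library came from the same line with the genotype label WT, and replicates were numbered 1 to 3 in both groups. The series asks how long exposure to BDE209 acts on the growth of thyroid cells. The labels do not state that replicates were separate cultures, so p-values cover the spread between these libraries, which may be technical.

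Autophagy encloses cytoplasm in a double membrane, the autophagosome, which then fuses with a lysosome where hydrolases digest the contents. The ULK1 kinase complex starts the process, the BECN1 lipid kinase complex marks the membrane with a phosphoinositide that WIPI proteins bind, and a conjugation system attaches small ubiquitin-like proteins of the ATG8 family to the growing membrane. Cargo receptors such as SQSTM1 tie cargo to ATG8 proteins and are themselves degraded with it. Transcript levels report neither the number of autophagosomes nor the rate of degradation.

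Expression was given as FPKM, fragments per length of transcript scaled to the fragments of the library. Summed FPKM ran between 567810 and 829739 in BDE209 libraries and between 580098 and 819086 in DMSO libraries, and the replicate 2 libraries held the highest sum in each group. Replicate 2 stood apart in both groups, and libraries with the same number deviated together from their group means. Defining markers of follicular cells were nearly absent: the 8 markers together summed to 1.73 to 2.44 FPKM in BDE209 libraries and 1.76 to 2.40 FPKM in DMSO libraries. Mesenchymal markers summed to 8980 to 12000 FPKM in BDE209 libraries and 9720 to 14300 FPKM in DMSO libraries, led by the intermediate filament VIM. Of the epithelial markers, mainly the keratins KRT18 and KRT8 were present. KRT18 read 36.19 to 50.84 FPKM in BDE209 libraries and 41.38 to 55.92 FPKM in DMSO libraries. KRT8 read 5.7 to 9.0 FPKM and 5.76 to 8.29 FPKM. Over all libraries EPCAM read 1.06 to 1.21 FPKM, KRT19 at most 0.08 FPKM and CDH1 at most 0.25 FPKM. The epithelial markers together summed to 43.1 to 60.5 FPKM in BDE209 libraries and 48.4 to 65.7 FPKM in DMSO libraries.

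To show what the 2 arms carry in their promoters, RefSeq windows of 300 bases (250 before to 50 after an annotated start, build GRCh38.p14) were searched for CACGTG, the core of the element that TFEB and related factors bind. A window was found for 28 of the 31 genes, and LAMP2, CTSB and HEXA had none in the table used. CACGTG stood in 5 of 9 lysosomal genes with a window (CTSA, CTSD, LAMP1, MCOLN1 and NEU1) and in 2 of 18 autophagosome genes (ATG3 and ATG14), against 7.26% of all 35116 windows. Genes can have several windows: the 18 autophagosome genes had 22, of which 2 held the core, and the 9 lysosomal genes had 1 each. The windows of GABARAPL1 and WIPI1, the members with every BDE209 library above every DMSO library, are given whole, in lower case. CACGTG would be in capitals and does not occur in them.
GABARAPL1, chr12:10212627-10212926, plus strand: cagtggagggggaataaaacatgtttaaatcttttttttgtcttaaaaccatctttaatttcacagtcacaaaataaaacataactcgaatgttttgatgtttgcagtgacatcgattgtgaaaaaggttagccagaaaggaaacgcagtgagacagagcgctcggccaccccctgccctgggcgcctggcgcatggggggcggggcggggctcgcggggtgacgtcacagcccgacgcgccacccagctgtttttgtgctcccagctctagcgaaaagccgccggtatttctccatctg
WIPI1, chr17:68457447-68457746, minus strand: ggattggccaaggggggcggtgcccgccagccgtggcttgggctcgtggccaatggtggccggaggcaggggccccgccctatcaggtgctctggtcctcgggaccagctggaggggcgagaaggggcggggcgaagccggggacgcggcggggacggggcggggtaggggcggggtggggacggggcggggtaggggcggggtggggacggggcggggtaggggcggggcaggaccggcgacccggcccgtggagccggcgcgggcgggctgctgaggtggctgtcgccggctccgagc
For the 7 genes that hold the core, 40 bases around its first copy are given with CACGTG in capitals, to show the element in its setting in the 5 lysosomal and 2 autophagosome promoters.
LAMP1, chr13:113297030-113297069, plus strand: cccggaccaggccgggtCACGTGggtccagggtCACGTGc
MCOLN1, chr19:7522566-7522605, plus strand: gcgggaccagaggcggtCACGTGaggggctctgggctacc
CTSA, chr20:45891276-45891315, plus strand: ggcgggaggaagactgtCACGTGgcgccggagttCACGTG
CTSD, chr11:1763952-1763991, minus strand: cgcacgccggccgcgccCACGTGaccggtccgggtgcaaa
NEU1, chr6:31862925-31862964, minus strand: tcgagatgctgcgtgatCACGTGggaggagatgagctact
ATG3, chr3:112561958-112561997, minus strand: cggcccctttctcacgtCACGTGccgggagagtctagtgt
ATG14, chr14:55411829-55411868, minus strand: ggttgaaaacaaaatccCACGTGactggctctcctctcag
LAMP1 held 6 copies in its window, MCOLN1, CTSA and ATG3 held 2 each, and CTSD, NEU1 and ATG14 held 1 each. The longer form TCACGTGA, which contains the core, stood in LAMP1, MCOLN1, CTSA and ATG3, against 0.98% of all windows. The FOXO motif TGTTTAC, searched on both strands, stood in CTSL alone among the members, against 3.42% of all windows. The NRF2 core TGACNNNGC, searched on both strands, stood in 7 of 9 lysosomal genes and in 1 of 18 autophagosome genes, MAP1LC3B, against 13.3% of all windows. None of these motifs was found in the 3 TFEB windows. These are matches of letters, and no binding was measured.

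In cells kept in BDE209, the 18 listed autophagosome genes stood slightly higher than in DMSO by their median, and the 12 listed lysosomal genes did not. Of the 18, 15 had a difference above 0 and 3 (ATG3, ATG16L1 and BECN1) below 0. Over all genes tested, 5992 lay above 0 and 5231 below. All 31 members passed the filter on low values, set at 1 FPKM reached by 3 libraries or more, which 11223 genes passed. On the log2(FPKM + 1) scale the median of the differences (BDE209 minus DMSO) was 0.11 over the 18 autophagosome genes and -0.03 over the 12 lysosomal genes, against 0.01 over all genes tested. Wider lists of the same pathway, described below, did not repeat this contrast. Their median was 0.06 over 26 other core autophagy genes and 0.06 over 19 other receptors. It was 0.07 over 41 other lysosomal hydrolases and activators and 0.05 over 17 other lysosomal membrane proteins. By limma over all genes, no member passed a Benjamini-Hochberg adjusted p of 0.05, and 0.00% of all genes were called; 2 of 31 members (6.45%) had an unadjusted p under 0.05, against 1.57% of all genes. With the replicate number as a block, again no member was called and 0.00% of all genes were; 8 of 31 members (25.8%) had an unadjusted p under 0.05, against 16.5% of all genes. RNA came from bulk cultures, so fewer cells of a kind and less RNA per cell cannot be told apart.

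Within replicate numbers the 2 arms kept their order. The autophagosome median was 0.12, 0.09 and 0.16 in replicates 1, 2 and 3, the lysosomal median was -0.02, -0.04 and 0.00, and the median over all genes was 0.01, 0.02 and 0.00 (log2 differences, BDE209 minus DMSO). Of the autophagosome genes, 10 of 18 (55.6%) stood higher in BDE209 in all 3 replicates, against 21.9% of all genes tested, and 0 stood lower in all 3, against 17.3%. Of the lysosomal genes, 1 of 12 (8.33%) stood higher in all 3 and 2 of 12 (16.7%) stood lower. These counts describe a list chosen with earlier results known, so no test was put on them. Leaving out 1 library unbalances the replicate numbers. Doing so moved the autophagosome median to 0.28 without BDE209 replicate 2, 0.17 without DMSO replicate 3 and 0.15 without DMSO replicate 1. It moved the lysosomal median to -0.11 without BDE209 replicate 2, -0.13 without DMSO replicate 2, -0.06 without BDE209 replicate 3, and -0.05 without BDE209 replicate 1, DMSO replicate 1 or DMSO replicate 3. The cause of the difference between arms was not tested.

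**Figure D1:**
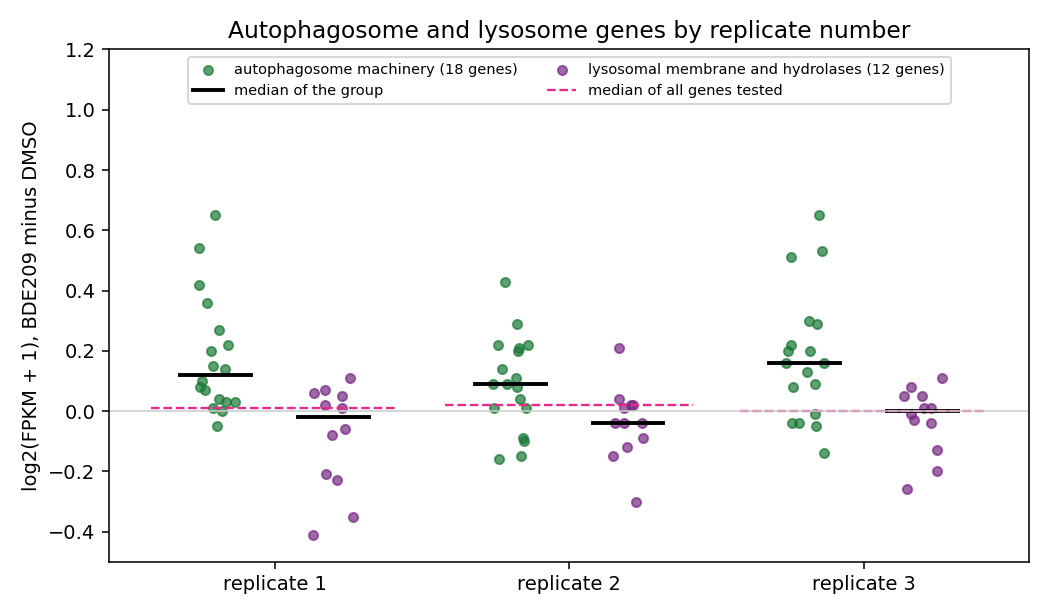
Differences of single genes (points, log2(FPKM + 1), BDE209 minus DMSO) in replicates 1, 2 and 3, for autophagosome machinery (18 genes) and lysosomal membrane proteins and hydrolases (12 genes). Black bars are group medians, which run from 0.09 to 0.16 for the autophagosome and from -0.04 to 0.00 for the lysosome; dashed lines are medians of all genes tested.

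Among the ATG8 proteins, which coat the autophagosome and hold cargo receptors, GABARAPL1 differed most. GABARAPL1 (ENSG00000139112) read 58.09, 61.51 and 51.22 FPKM in BDE209 replicates 1, 2 and 3, and 39.73, 45.30 and 35.65 FPKM in DMSO replicates 1, 2 and 3. Every BDE209 library lay above every DMSO library, and within replicate numbers the ratio of BDE209 to DMSO was 1.46, 1.36 and 1.44. The mean was 56.9 ± 5.24 FPKM in BDE209 cells and 40.2 ± 4.84 FPKM in DMSO cells (SD, n = 3 each), a log2 difference of 0.49 (SE 0.148; limma adjusted p = 1.00, and 0.144 with the replicate block). GABARAPL1 was thus not called over all genes, though its block interval of 0.36 to 0.62 (95%, not adjusted over genes) lay above 0.

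The other ATG8 genes differed less, and their groups overlapped. GABARAPL2 read 61.77, 78.21 and 61.08 FPKM in BDE209 replicates and 52.95, 63.83 and 57.32 FPKM in DMSO replicates, a log2 difference of 0.20 (SE 0.158). MAP1LC3B, the most used marker of autophagosomes, read 60.45, 41.26 and 51.72 FPKM in BDE209 replicates and 49.91, 35.35 and 47.06 FPKM in DMSO replicates, a log2 difference of 0.21 (SE 0.204). Both stood higher in BDE209 in every replicate, by ratios of 1.07 to 1.23 for GABARAPL2 and 1.10 to 1.21 for MAP1LC3B, with adjusted p of 0.235 and 0.223 by limma with the block. GABARAP, the most abundant of the family, read 194.25, 251.35 and 182.60 FPKM in BDE209 replicates and 184.94, 235.82 and 183.41 FPKM in DMSO replicates, with ratios of 1.05, 1.07 and 0.996. MAP1LC3B has a close copy, MAP1LC3B2, which read 1.21, 0.24 and 1.09 FPKM in BDE209 replicates and 0.37, 0.61 and 0.38 FPKM in DMSO replicates. Reads of the copies may have been split between them, so both values are uncertain.

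**Figure D2:**
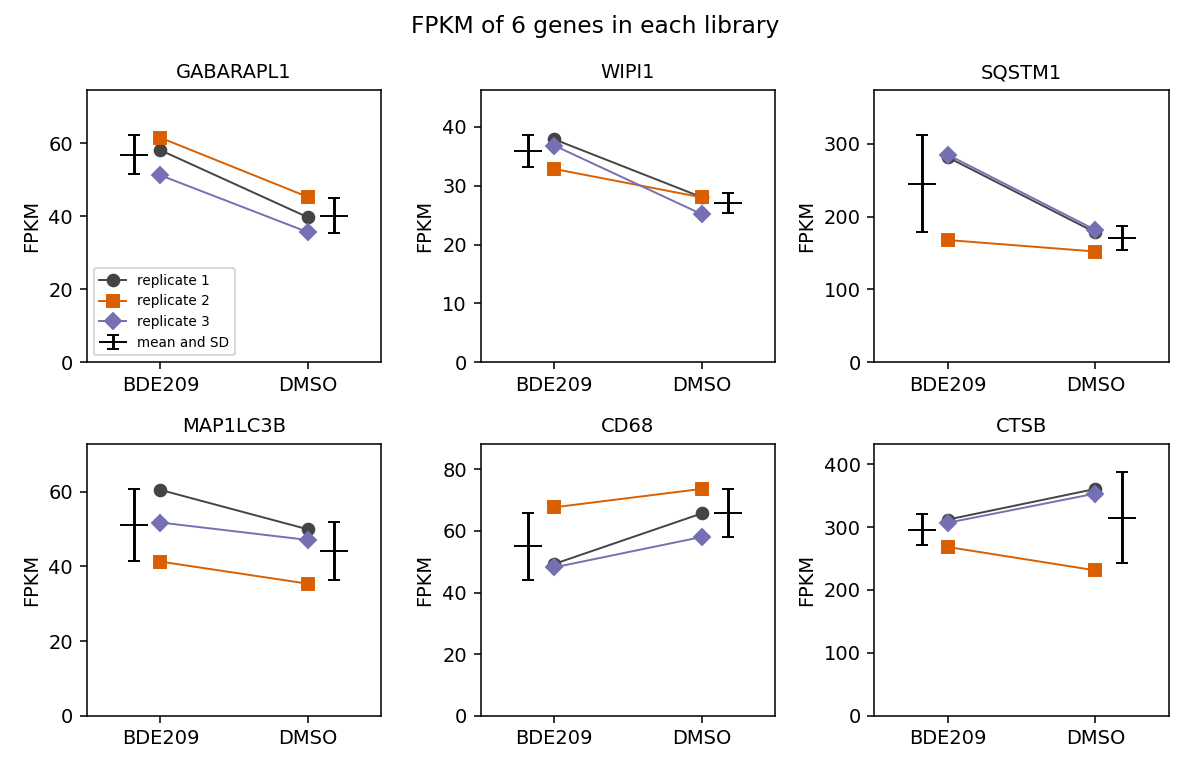
FPKM of 6 genes in each library, BDE209 on the left and DMSO on the right of each panel, with lines joining libraries that share a replicate number and bars giving the mean and SD of 3 libraries. GABARAPL1 and WIPI1 lay higher in every BDE209 library than in any DMSO library, SQSTM1 and MAP1LC3B overlapped because of replicate 2, CD68 stood lower in BDE209 within every replicate number, and CTSB moved one way in replicates 1 and 3 and the other way in replicate 2.

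WIPI1 and SQSTM1 were the other members with sizeable differences. WIPI1 (ENSG00000070540), which binds the phosphoinositide of the forming membrane, read 37.90, 32.86 and 36.84 FPKM in BDE209 replicates 1, 2 and 3, and 28.07, 28.04 and 25.19 FPKM in DMSO replicates 1, 2 and 3. The groups did not overlap, and the log2 difference was 0.39 (SE 0.122; limma adjusted p = 1.00, and 0.204 with the block). Its relative WIPI2, which recruits the conjugation machinery, differed little, at 71.90 to 78.05 FPKM in BDE209 cells and 68.41 to 73.71 FPKM in DMSO cells. SQSTM1 (ENSG00000161011), the p62 cargo receptor, read 281.25, 167.83 and 284.75 FPKM in BDE209 replicates and 178.26, 152.11 and 181.68 FPKM in DMSO replicates. Its 2 highest BDE209 libraries were replicates 1 and 3, and BDE209 replicate 2 lay within the DMSO range. The mean was 245 ± 66.5 FPKM in BDE209 cells and 171 ± 16.2 FPKM in DMSO cells (SD, n = 3 each), a log2 difference of 0.48 (SE 0.252; limma adjusted p = 1.00, and 0.216 with the block).

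Of the 31 members, GABARAPL1 and WIPI1 had all BDE209 libraries above all DMSO libraries (6.45%), against 3.22% of all genes tested. MCOLN1 had all BDE209 libraries below (3.23%), against 2.00%. Those shares rest on 2 genes and 1 gene and lie close to the background.

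The upstream kinases and lipid handlers differed by less than the spread between replicates. ULK1, the kinase that starts autophagy, read 9.78, 5.34 and 11.25 FPKM in BDE209 replicates and 9.07, 5.15 and 9.52 FPKM in DMSO replicates, higher in BDE209 in each replicate. ATG13, its adaptor, read 20.99, 15.64 and 20.94 FPKM in BDE209 replicates and 19.02, 13.42 and 18.68 FPKM in DMSO replicates, a log2 difference of 0.17 (SE 0.189) with ratios of 1.10, 1.17 and 1.12. With the replicate block the SE of ATG13 was 0.0554, and it was not called (limma adjusted p = 0.251). In both genes the replicate 2 libraries were the lowest of their group. ATG9A, the scramblase carried on seed vesicles, read 34.49, 24.72 and 37.18 FPKM in BDE209 replicates and 29.89, 26.54 and 30.11 FPKM in DMSO replicates, so that it stood higher in replicates 1 and 3 and lower in replicate 2. ATG2A, which moves lipid into the growing membrane, followed the same signs, with log2 differences of 0.08, -0.16 and 0.20. ATG14, which directs the lipid kinase to autophagy, read 6.40, 2.69 and 5.60 FPKM in BDE209 replicates and 4.75, 2.67 and 4.76 FPKM in DMSO replicates. BECN1, the core of that complex, was nearly equal, at 39.88, 47.57 and 36.29 FPKM in BDE209 replicates and 39.88, 47.24 and 37.43 FPKM in DMSO replicates.

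The conjugation genes, which attach ATG8 proteins to lipid, showed no common direction. Their 5 log2 differences ran from -0.06 in ATG16L1 to 0.10 in ATG5, and ATG12 was the 1 gene of them higher in BDE209 in all 3 replicates, by ratios of 1.02, 1.07 and 1.13. ATG3, the conjugating enzyme, read 75.04, 107.18 and 64.87 FPKM in BDE209 replicates and 77.72, 101.13 and 71.83 FPKM in DMSO replicates. ATG7, the activating enzyme, stood between 13.27 and 20.75 FPKM in BDE209 cells and between 14.24 and 18.41 FPKM in DMSO cells. The replicate number moved both genes more than BDE209 did.

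**Figure D3:**
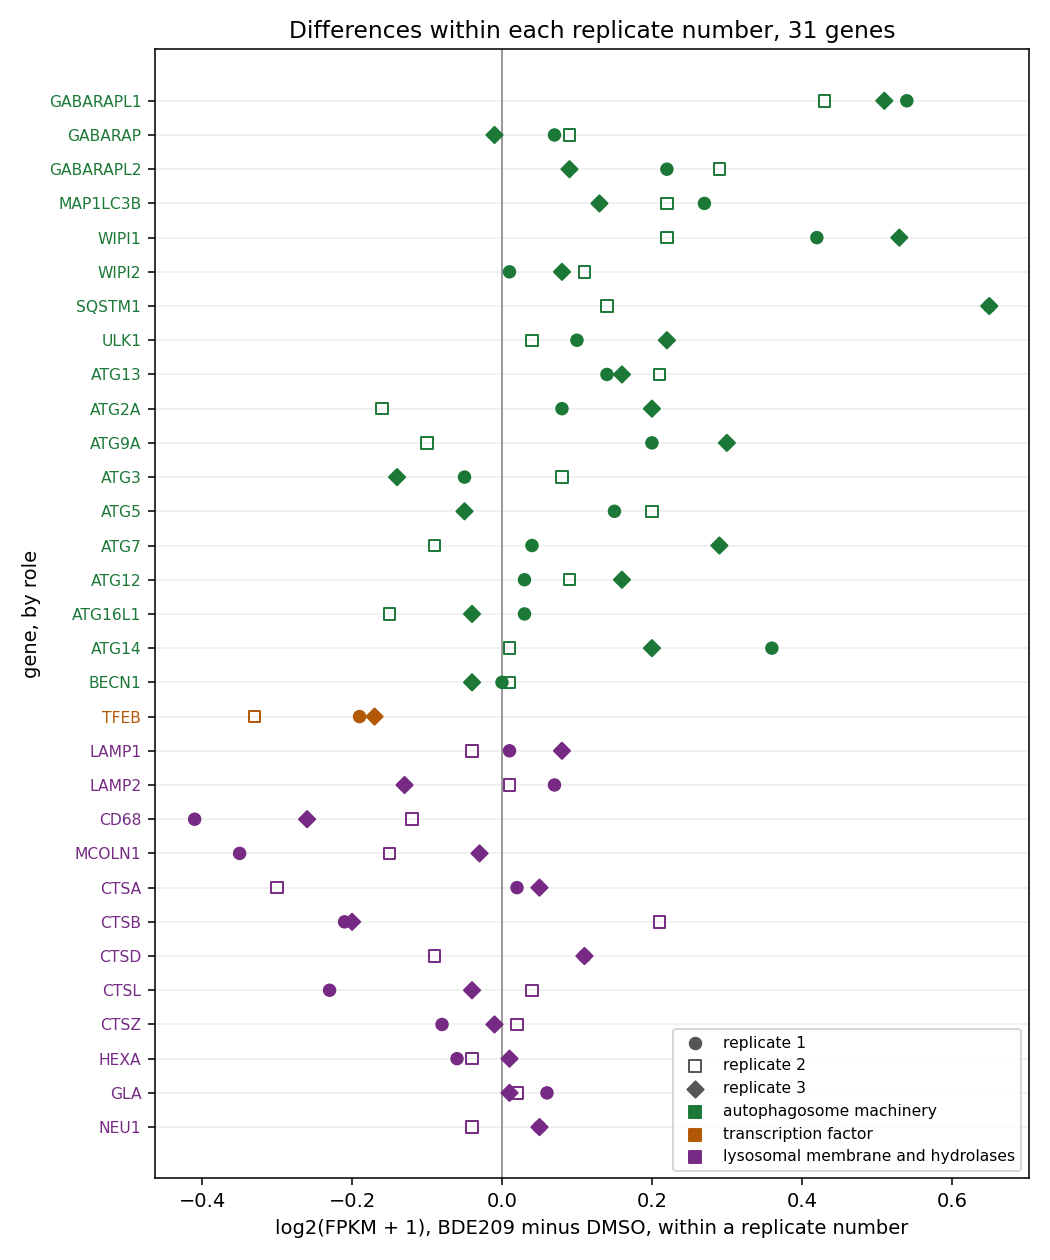
Log2(FPKM + 1) differences, BDE209 minus DMSO, of the 31 genes within each replicate number, ordered by role and coloured by arm; circles, open squares and diamonds are replicates 1, 2 and 3, and symbols at the same value overlap (SQSTM1, CTSD and NEU1 in replicates 1 and 3). GABARAPL1, WIPI1 and SQSTM1 lie furthest to the right, and CD68, MCOLN1 and TFEB lie left of 0 in every replicate.

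TFEB was the least abundant member and stood lower in BDE209 in every replicate. TFEB (ENSG00000112561) read 2.87, 1.47 and 2.46 FPKM in BDE209 replicates 1, 2 and 3, and 3.42, 2.10 and 2.89 FPKM in DMSO replicates 1, 2 and 3, with ratios of 0.839, 0.700 and 0.851. The groups overlapped, and the log2 difference was -0.23 (SE 0.221; limma adjusted p = 1.00, and 0.263 with the block). The log2(FPKM + 1) scale understates the change of a gene at such low values. The activity of TFEB is set largely by its location in the cell, which was not measured.

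Of the 4 lysosomal membrane genes, CD68 and MCOLN1 stood lower in BDE209 in every replicate and LAMP1 and LAMP2 did not. CD68, a lysosomal glycoprotein abundant in macrophages, read 49.29, 67.67 and 48.18 FPKM in BDE209 replicates and 65.66, 73.63 and 58.03 FPKM in DMSO replicates, a log2 difference of -0.26 (SE 0.184; limma adjusted p = 1.00, and 0.222 with the block). It stood lower in each replicate, while BDE209 replicate 2 lay above DMSO replicates 1 and 3. Markers of macrophages and leukocytes were near 0: the 5 of 8 listed genes that were matched summed to 0.53 to 0.69 FPKM in BDE209 libraries and 0.49 to 0.91 FPKM in DMSO libraries, and PTPRC, the pan-leukocyte marker, read at most 0.02 FPKM. MCOLN1, a calcium channel of the lysosome, read 12.25, 13.01 and 14.29 FPKM in BDE209 replicates and 15.94, 14.55 and 14.57 FPKM in DMSO replicates, a log2 difference of -0.18 (SE 0.115). Its groups did not overlap, but replicate 3 differed by a ratio of only 0.981. LAMP1 and LAMP2, the main structural glycoproteins of the lysosomal membrane, had log2 differences of 0.01 (SE 0.273) and -0.02 (SE 0.131). LAMP1 read 79.40, 52.24 and 90.64 FPKM in BDE209 replicates and 79.07, 53.83 and 85.72 FPKM in DMSO replicates, which tracks the replicate number.

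The cathepsins, proteases of the lysosome, were among the most abundant members and differed little. CTSB, a cysteine protease with the highest mean of the 31 genes, read 311.93, 268.20 and 306.81 FPKM in BDE209 replicates and 360.51, 231.07 and 353.17 FPKM in DMSO replicates. It stood lower in BDE209 in replicates 1 and 3, by ratios of 0.865 and 0.869, and higher in replicate 2, by 1.16. CTSA, which protects other lysosomal enzymes, did not share this pattern: it read 178.87, 237.18 and 184.12 FPKM in BDE209 replicates and 176.17, 292.79 and 178.28 FPKM in DMSO replicates, with a ratio of 0.810 in replicate 2 and ratios of 1.02 and 1.03 in replicates 1 and 3. CTSD, an aspartic protease, had log2 differences of 0.11, -0.09 and 0.11 in replicates 1, 2 and 3. CTSL, another cysteine protease, read 54.07 to 80.72 FPKM in BDE209 cells and 55.62 to 78.76 FPKM in DMSO cells. CTSZ, a carboxypeptidase, read 143.74 to 243.34 FPKM in BDE209 cells and 142.11 to 258.07 FPKM in DMSO cells.

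The glycosidases, which trim sugars from lipids and glycoproteins, differed little. HEXA, a subunit of hexosaminidase, averaged 21.1 ± 3.07 FPKM in BDE209 cells and 21.6 ± 3.42 FPKM in DMSO cells. GLA, alpha-galactosidase, averaged 34.7 ± 8.66 FPKM in BDE209 cells and 34.0 ± 8.65 FPKM in DMSO cells (SD, n = 3 each). NEU1, a sialidase, read 11.84, 14.80 and 12.40 FPKM in BDE209 replicates and 11.42, 15.26 and 11.98 FPKM in DMSO replicates. With the block, the 95% intervals of the log2 difference were -0.16 to 0.10 for HEXA, -0.10 to 0.16 for GLA and -0.12 to 0.16 for NEU1, not adjusted over genes.

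Levels per transcript length spanned a wide range across the set. CTSB, CTSZ, SQSTM1, CTSA and GABARAP held the 5 highest means over the 6 libraries, in that order, and ATG2A, ATG14 and TFEB the lowest. Of the 30 steps between neighbours in that order, the ranges over 6 libraries were apart in 1, between GABARAP and CTSD. Summed over the arm, autophagosome genes held 1020, 979 and 990 FPKM in BDE209 replicates 1, 2 and 3, and 852, 891 and 839 FPKM in DMSO replicates 1, 2 and 3. Every BDE209 sum lay above every DMSO sum, and the gap was widest in replicates 1 and 3, where SQSTM1 differed most. That separation leans on SQSTM1, which held 281, 168 and 285 FPKM of the BDE209 sums and 178, 152 and 182 FPKM of the DMSO sums. Without SQSTM1 the sum of BDE209 replicate 3 falls below that of DMSO replicate 2. Within each replicate number the BDE209 sum still stays higher. Lysosomal genes held 1150, 1050 and 1160 FPKM in BDE209 replicates, and 1230, 1070 and 1200 FPKM in DMSO replicates, lower in every replicate number. Those sums lean on abundant cathepsins, CTSB in replicates 1 and 3 and CTSA in replicate 2: the other 10 genes held 662, 540 and 673 FPKM in BDE209 replicates and 694, 551 and 671 FPKM in DMSO replicates.

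Because replicate 2 stood apart, the treatment was also tested in replicates 1 and 3 alone, with 2 libraries per group. There, by limma over all genes, SQSTM1 rose by 0.65 (adjusted p = 0.0032), GABARAPL1 by 0.52 (0.0210) and WIPI1 by 0.48 (0.0188) on the log2 scale. These 3 of 31 members (9.68%) compare with 4.47% of all genes called higher, and 0 members compare with 2.33% called lower. CD68 came closest among the others, at -0.33 (adjusted p = 0.0648). The choice of libraries was made with earlier results known, so these calls hold for those 4 libraries.

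Whether the response in replicate 2 differed from that in replicates 1 and 3 was tested for each gene as an interaction. The spread was taken from replicates 1 and 3 because replicate 2 has 1 library per group. This test was chosen with earlier results known. By limma 0 of 31 members were called, against 0.615% of all genes. At an unadjusted p under 0.05 there were 4 of 31 members (12.9%), close to the 11.1% of all genes. SQSTM1 had the smallest adjusted p of the members, 0.173, with a difference in response of -0.51 on the log2 scale (replicate 2 minus replicates 1 and 3). CTSB followed at 0.42 (adjusted p = 0.268), then CTSA at -0.34 (0.373) and ATG9A at -0.35 (0.399). For GABARAPL1 it was -0.09 (adjusted p = 0.908). Members also differed between replicate 2 and the others without regard to BDE209: the shift of replicate 2 ran from -0.83 in ATG2A to 0.58 in GLA. Across genes it fell with transcript length, at a Spearman correlation of -0.34 over the 31 members and -0.51 over 11204 tested genes with a length, all from the same libraries, and the part of length in these values was not tested.

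**Figure D4:**
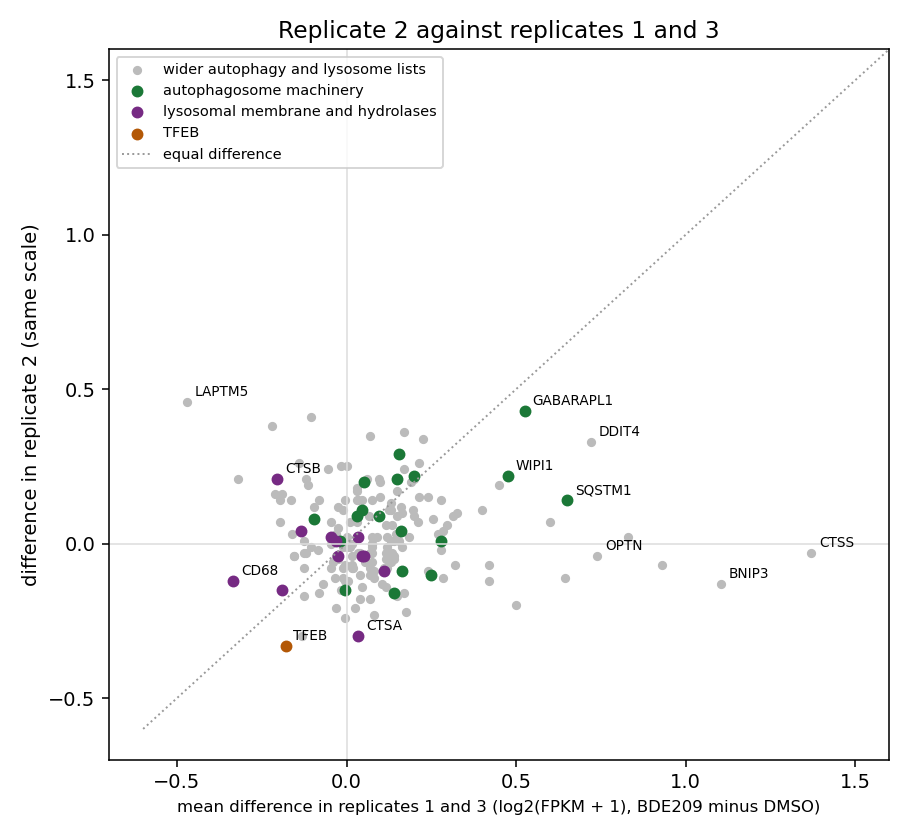
Difference between BDE209 and DMSO in replicate 2 (vertical, log2(FPKM + 1)) against the mean difference in replicates 1 and 3 (horizontal, same scale), for the 31 genes in colour and the wider autophagy and lysosome lists in grey; the dotted line marks equal differences. GABARAPL1 lies near the line, whereas SQSTM1, and more so BNIP3, OPTN and CTSS, lie far to the right and near 0 on the vertical axis.

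The rest of the pathway was read from 7 wider lists of 179 genes, of which 160 were tested. No gene was called over all 6 libraries by limma, with 3 of 160 (1.88%) at an unadjusted p under 0.05, against 1.57% of all genes. None was called with the block, with 24 of 160 (15.0%) at that p, against 16.5% of all genes. In replicates 1 and 3 alone 14 of 160 were called higher (8.75%, against 4.47% of all genes) and 1 lower. The median difference over all 6 libraries was 0.05. Of the wider genes, 43 of 160 (26.9%) stood higher in all 3 replicates and 17 of 160 (10.6%) lower, near the background of 21.9% and 17.3%.

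Other autophagy receptors included genes with large differences in replicates 1 and 3, where 4 of 19 were called higher (21.1%, against 4.47% of all genes). Over all 6 libraries the median difference of the list was 0.06. In replicate 2 it was 0.00, with 9 of 19 genes above 0. OPTN, optineurin, a receptor for damaged mitochondria and bacteria, read 45.96, 34.43 and 44.27 FPKM in BDE209 replicates and 27.60, 35.39 and 25.71 FPKM in DMSO replicates. BNIP3L, a mitochondrial receptor, read 108.37, 84.08 and 95.17 FPKM in BDE209 replicates and 67.83, 79.78 and 65.80 FPKM in DMSO replicates, with no overlap. In both genes the gap between groups lay in replicates 1 and 3, where limma gave log2 differences of 0.74 (adjusted p = 0.00297) and 0.60 (0.0095). BNIP3, the mitochondrial relative of BNIP3L, was named after its values were seen: it read 268.23, 286.20 and 271.10 FPKM in BDE209 replicates and 126.34, 313.09 and 123.10 FPKM in DMSO replicates. DMSO replicate 2 was its highest library, and in replicates 1 and 3 alone it was called at 1.11 (limma adjusted p = 0.00042). CCPG1, a receptor for the endoplasmic reticulum, read 29.70, 12.94 and 27.15 FPKM in BDE209 replicates and 22.09, 11.25 and 19.08 FPKM in DMSO replicates, and NBR1, a relative of SQSTM1, had log2 differences of 0.18, 0.20 and 0.20. CCPG1 was called in replicates 1 and 3 alone (0.45, adjusted p = 0.0374) and NBR1 was not (0.19, 0.178).

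Of 26 tested genes of the core machinery outside the 31, 7 (26.9%) stood higher and 5 (19.2%) lower in all 3 replicates, and the median difference was 0.06. These shares lie near the 21.9% and 17.3% of all genes tested. PIK3C3, the lipid kinase that works with BECN1, had log2 differences of 0.40, -0.07 and 0.44 in replicates 1, 2 and 3, and MAP1LC3A, a further ATG8 gene, had 0.36, -0.12 and 0.48. These 2 were the genes called in replicates 1 and 3 alone (adjusted p of 0.0350 and 0.0361 by limma). They make up 7.69% of the list, against 4.47% of all genes called higher. VMP1, a scramblase of the endoplasmic reticulum, and ZFYVE1, which marks the site of autophagosome formation, each had a log2 difference of 0.23 over all libraries, positive in every replicate. The MiT factors and mTORC1 control genes had a median of 0.00 over 31 genes. DEPTOR, an inhibitor of mTOR, read 3.50, 1.15 and 3.29 FPKM in BDE209 replicates and 1.51, 1.12 and 1.43 FPKM in DMSO replicates, and DDIT4, an inhibitor of mTORC1 induced by stress, read 227.96, 98.01 and 235.94 FPKM in BDE209 replicates and 138.73, 77.71 and 141.90 FPKM in DMSO replicates. Both were called higher in replicates 1 and 3 alone, at 0.83 (limma adjusted p = 0.0049) and 0.72 (0.00234). They make up 6.45% of the 31 genes of that list, against 4.47% of all genes. RRAGB, a GTPase that brings mTORC1 to the lysosome, read 12.73 to 14.03 FPKM in BDE209 cells and 10.91 to 11.49 FPKM in DMSO cells.

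The remaining lysosomal lists had small medians. The vacuolar ATPase, the proton pump of the lysosome, had a median of 0.02 over 18 tested genes, with ATP6V1B2 at 0.12, ATP6V1A at 0.15 and ATP6V1E2 at -0.19. Genes that sort hydrolases to the lysosome had a median of 0.05 over 8 genes, with the mannose 6-phosphate receptors M6PR at 0.11 and IGF2R at 0.20 and the transferase subunit GNPTG at 0.12. Further membrane proteins had a median of 0.05 over 17 genes: SCARB2, which delivers glucocerebrosidase, stood at 0.20, the amino acid sensor SLC38A9 at 0.24 and the cobalamin exporter LMBRD1 at 0.26. No gene of the pump or sorting lists was called in replicates 1 and 3 alone, and of the membrane list TPCN1, a cation channel, was called higher and LAPTM5 lower, both named after their values were seen (0.64, adjusted p = 0.0148, and -0.47, 0.0361, by limma).

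Further hydrolases and activators had a median of 0.07 over 41 tested genes, and 5 (12.2%) were called higher in replicates 1 and 3 alone, against 4.47% of all genes. CTSS, a cysteine protease best known in antigen presentation, read 4.22, 2.91 and 3.40 FPKM in BDE209 replicates and 0.69, 2.98 and 1.04 FPKM in DMSO replicates, so that DMSO replicate 2 alone matched the BDE209 libraries. FUCA1, a fucosidase, TPP1, a peptidase, MANBA, a mannosidase, and CTSO, a cathepsin, were the other 4, named after their values were seen, with log2 differences of 0.93, 0.32, 0.40 and 0.50 in those replicates. ASAH1, acid ceramidase, read 26.17 to 29.45 FPKM in BDE209 cells and 22.52 to 24.46 FPKM in DMSO cells, with no overlap, and DNASE2, the lysosomal nuclease, stood higher in every replicate by log2 differences of 0.32, 0.10 and 0.33.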

How the data were processed

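RNA of 6 libraries (3 BDE209, 3 DMSO) was measured as FPKM per gene, deposited by the authors to 2 decimals with human Ensembl identifiers, per the file headers. RSEM, Bowtie2 and Bowtie 0.12.2 are named in the submitters' processing notes, along with mm10 and mm8, which are mouse builds. No human build, annotation or strand setting is stated there. Sequencing depth is unknown, because FPKM carry no counts and low values formed no steps.

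Each file held 16614 rows. Rows of 20 identifiers listed 2 times were left out, and 16535 of the remaining 16574 matched a symbol. Limma 3.58.1 in R 4.3.3, with trend and robust options, was fitted to log2(FPKM + 1) of 11223 genes without a block, and calls were made at a Benjamini-Hochberg adjusted p under 0.05 over all of them. The labels do not state whether replicate numbers pair the libraries. Deviations from group means correlated at 0.738 to 0.875 between same-numbered libraries. Each BDE209 library correlated best with the DMSO library of its number, so the fit with a block was also read. Because replicate 2 stood apart in both groups, it also draws the deviations of replicates 1 and 3 together. The alternatives were another pseudocount, 2 other filters, 2 scalings, limma without trend, each library left out, and replicate 2 left out. The members and lists were chosen with earlier results of these data known. Of each wider list, the 2 genes with the smallest p in the fits without and with the block were to be named. Transcript lengths came from GENCODE 29, longest transcript per gene, and promoters from RefSeq.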

Additional observations from a re-analysis of the deposited data

Results flagged for a closer look

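BNIP3 was the 1 gene of 160 tested in the wider lists called for a response to BDE209 that differed between replicate 2 and replicates 1 and 3. That share is close to the 0.615% of all genes called. For BNIP3, named after its values were seen, the difference was -1.24 on the log2(FPKM + 1) scale (replicate 2 minus replicates 1 and 3). The comparison of replicate 2 with the others was chosen with earlier results known. The limma interaction gave an adjusted p of 0.0110, with the spread from replicates 1 and 3. Within replicates 1, 2 and 3 the log2 differences, BDE209 minus DMSO, were 1.08, -0.13 and 1.13. The DMSO library of replicate 2 stood highest of the 6, at 313.09 FPKM. Without a filter on low values the adjusted p was 0.228, and it was between 0.00748 and 0.0266 under the other alternatives. The cause was not tested.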

How the results depend on the processing

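Counts of calls kept at 0 for the treatment over all genes, for the 31 members and for the wider lists in all settings that kept both replicate 2 libraries, among them the replicate block. Leaving libraries out gave 0 to 764 genes called, 0 to 3 members and 0 to 15 wider genes, with the upper end of each when replicate 2 was left out of both groups. Leaving out BDE209 replicate 2 gave 1 gene, which is no member. The interaction of treatment with replicate 2 called 69 genes and 0 without a filter on low values. The autophagosome median ran from 0.08 to 0.28 and the lysosomal median from -0.13 to -0.03 when libraries were left out. The scalings moved the first to 0.12 and 0.09 and the second to -0.01 and -0.03. With the replicate block the medians were 0.11 and -0.03, as without it. Each replicate number holds 1 library per group, so the block cannot change a log2 difference and is no check on the medians. The block changed no call of a member.

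Differences near 0 changed sign under the scalings. With FPKM rescaled, BECN1 came to 0.00; with quantile normalized values BECN1, CTSZ and NEU1 came to 0.00, 0.00 and -0.00. Leaving libraries out, differences ran from -0.09 to 0.17 in GABARAP, -0.13 to 0.41 in ULK1, -0.18 to 0.37 in ATG2A, -0.24 to 0.12 in ATG3, -0.07 to 0.25 in ATG5, -0.04 to 0.26 in ATG7, -0.12 to 0.00 in ATG16L1, -0.03 to 0.50 in ATG14, -0.12 to 0.08 in BECN1, -0.19 to 0.24 in LAMP1, -0.09 to 0.04 in LAMP2, -0.21 to 0.16 in CTSA, -0.27 to 0.05 in CTSB, -0.17 to 0.33 in CTSD, -0.26 to 0.04 in CTSL, -0.29 to 0.22 in CTSZ, -0.14 to 0.09 in HEXA, -0.16 to 0.22 in GLA and -0.07 to 0.14 in NEU1. The other 12 members kept their sign when 1 library was left out: GABARAPL1 stayed between 0.41 and 0.58, WIPI1 between 0.34 and 0.45 and SQSTM1 between 0.35 and 0.73. The number of libraries limits these tests, and depth could not be judged.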
